A study of Mus musculus with 4 samples.

Results

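The genes described here encode enzymes that write, copy and oxidize 5-methylcytosine in the mouse, together with their partners Uhrf1 and Dnmt3l. The 8 genes were taken by name, out of 22367 protein-coding genes of the GENCODE vM1 annotation, as Dnmt1, Uhrf1, Dnmt3a, Dnmt3b, Dnmt3l, Tet1, Tet2 and Tet3. The measurements are the H3K36me3 ChIP-seq regions of male germ cells at 14 dpp (days post-partum) from C57BL/6J mice (B6) and from B6.Cg-Prdm9<tm1.1Kpgn>/Kpgn mice (KI). KI is a knock-in strain on the B6 background that carries the zinc finger exon of the CAST/EiJ allele of Prdm9. Each strain had 1 H3K36me3 data set, made by merging 2 biological replicates before peak calling against the strain's own input, and the inputs are labeled as 15 dpp. No value below therefore has a replicate error, and no test between the strains was possible.

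Dnmt1 copies CpG methylation onto new DNA strands at replication, and Uhrf1 brings it to hemimethylated CpGs. Dnmt3a and Dnmt3b place new methyl groups, and Dnmt3l is a cofactor without catalytic activity that is needed for new methylation in the fetal male germ line. The TET enzymes oxidize 5-methylcytosine on the way to its removal. H3K36me3 itself is laid down along the bodies of transcribed genes by SETD2, and the PWWP domains of DNMT3A and DNMT3B bind methylated H3K36, so this pathway reads the mark measured here. PRDM9 adds H3K36me3 at recombination hotspots, which can lie in or outside genes.

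ZINBA gave 2 lists per strain. Broad regions mark extended enrichment, and their edges fall on a grid of 500 bp. Refined peaks are narrower places of additional enrichment within them. Refined peaks numbered 58502 (B6) and 72692 (KI), and broad regions, after overlapping ones were merged, 39620 (B6) and 48863 (KI). They hold positions but no counts or heights, so the depth behind a single region is unknown. The study's methods give more aligned reads for the merged KI data than for B6. Among genes marking the labeled cell type, broad regions covered 89.4% to 100% of 9 spermatocyte genes in B6 and 85.8% to 100% in KI, while Meiob, also listed, was not matched by name. Markers of Sertoli cells, the somatic cells that line the seminiferous tubules, differed between the strains. The 5 of 6 matched by name (Sox9, Wt1, Amh, Gata4 and Clu) were covered to between 19.6% and 71.7% in B6 and to between 0% and 8.49% in KI, where Sox9 and Clu were at 0. Of 6 Leydig cell genes, Cyp17a1, Hsd3b1 and Insl3 were at 0 in both strains and Star was at 100% in both. Of 4 blood cell genes, 2 were at 0 in both, Ptprc was covered to 2.22% (B6) and 2.67% (KI), and the remaining gene to 43.2% (B6) and 26.1% (KI).

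Of the 8 genes, 5 were marked along most of their length in both strains, and 3 were not. Broad regions lay over more than 90% of the span of Dnmt1, Uhrf1, Dnmt3b and Tet3 in either strain. They covered less of Dnmt3a (75.6% in B6, 67.7% in KI), Tet2 (40.7% and 21.7%), Dnmt3l (0% and 24.8%) and Tet1 (4.23% and 0%). With 50% of the span taken as marked, 5 of 8 genes were marked in B6 and the same 5 in KI. Over all protein-coding genes, 43.0% were marked in B6 and 41.2% in KI. Among the 7532 protein-coding genes between the shortest member (20166 bp) and the longest (108437 bp) the shares were 57.3% and 54.6%. The count of 5 of 8 was thus close to that background. Cover of at least 90% in both strains was found for 4 of 8 members, against 34.5% of genes of like length. The values nearest to the limit of 50% were the 40.7% of Tet2 in B6 below it and the 67.7% of Dnmt3a in KI above it. Summed over all 488.8 kb of the members, broad regions covered 60.8% in B6 and 55.9% in KI.

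**Figure D1:**
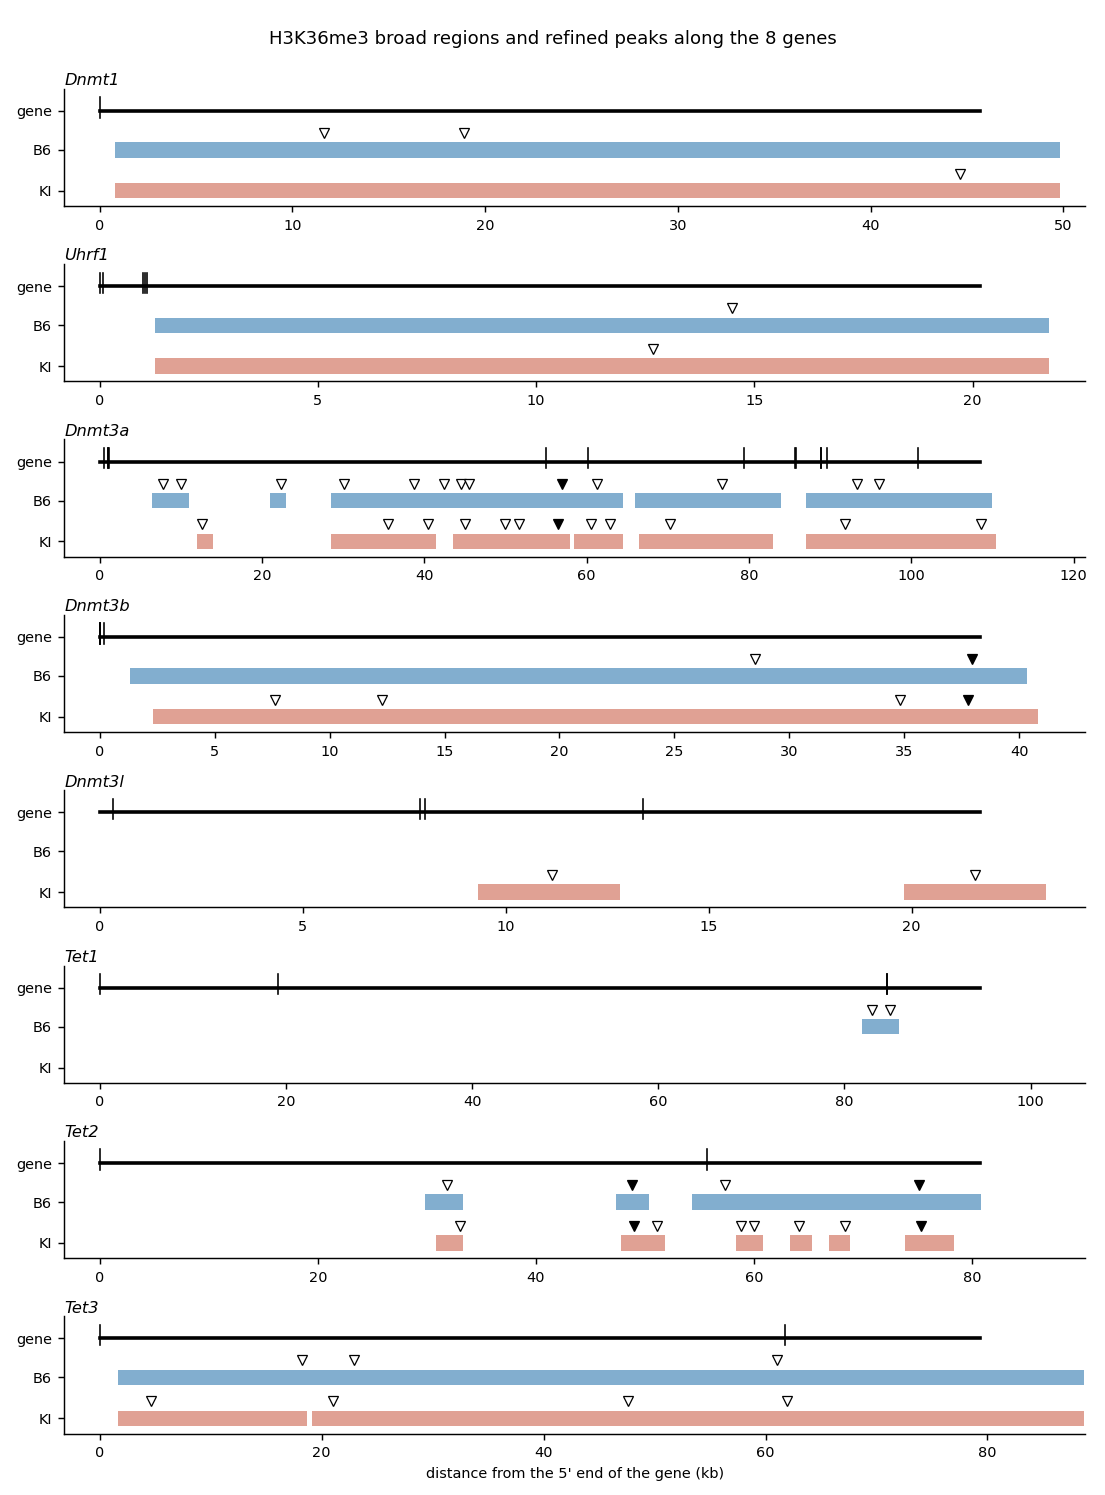
Maps of the 8 genes with distance from the 5′ end in kb on each x axis, on a scale that differs between genes. Black lines are genes, black ticks starts of protein-coding transcripts, colored bars the broad regions that overlap the gene in B6 (blue) and KI (red), and triangles refined peaks, filled where they overlap a refined peak of the other strain. Dnmt1, Uhrf1, Dnmt3b and Tet3 are covered from shortly after the start to past the 3′ end, whereas Dnmt3l has bars only in KI and Tet1 only in B6.

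The maintenance genes were marked alike in both strains. Dnmt1 lies on chromosome 9 of mm9 from 20711650 to 20757317 on the reverse strand. A single broad region of 49.0 kb covered 98.2% of it in B6 and in KI, with the same first and last base in the lists of both strains. It began 817 bp downstream of the annotated start and ran 4.1 kb past the 3′ end, short of the 5′ end of Eif3g, the next gene, which lies 8.6 kb away and was covered to 99.0% in both strains. Uhrf1, on chromosome 17 from 56442744 to 56462909 on the forward strand, was covered to 93.8% in both strains by a single region of 20.5 kb. It too had identical edges, 1257 bp downstream of the start and 1.6 kb past the 3′ end. All 5 annotated starts of Uhrf1 protein-coding transcripts lay before the region, the last of them by 171 bp.

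Refined peaks in these 2 genes were few and in different places. B6 had 2 in Dnmt1, of 306 and 408 bp, at 11.7 and 18.9 kb from the start, and KI had 1 of 235 bp at 44.6 kb, near the 3′ end. All 3 were intronic. In Uhrf1, B6 had 1 intronic peak of 225 bp at 14.5 kb and KI had 1 of 252 bp at 12.7 kb that touched a coding exon. None of the 5 overlapped a refined peak of the other strain, and each lay within the broad region that the other strain had over the same gene. Such overlap was uncommon over all protein-coding genes too, at 19.0% of B6 and 15.9% of KI refined peaks.

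Among the genes for new methylation, Dnmt3b came close to the maintenance genes. It lies on chromosome 2 from 153475186 to 153513466 on the forward strand, and 1 broad region covered 96.6% of it in B6 and 94.0% in KI. The region began 1315 bp downstream of the start in B6 and 2315 bp downstream in KI, 2 steps of the 500 bp grid apart, and ended 2.0 and 2.5 kb past the 3′ end. B6 had 2 refined peaks in Dnmt3b and KI had 4. One pair overlapped by 142 bp in the last exon, outside the coding sequence, at 37.9 kb in B6 and 37.8 kb in KI. The other KI peaks lay in introns at 7.6 and 12.3 kb and at a coding exon at 34.8 kb, and the other B6 peak lay in an intron at 28.5 kb.

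Dnmt3a was the longest of the 8 genes and its broad enrichment was interrupted in both strains. It lies on chromosome 12 from 3806007 to 3914443 on the forward strand and has 18 annotated transcripts. B6 had 5 broad regions in it and KI had 6. The first part of the gene was mostly unmarked. In B6 the first region began 6494 bp from the 5′ end, covered 4.5 kb and was followed by a second of 2.0 kb at 21.0 kb. In KI the only region in this stretch was 1 of 2.0 kb that began at 11994 bp. Outside the gene, B6 had a region that ended 507 bp upstream of the 5′ end, and the nearest upstream region of KI ended 4007 bp away. At 28494 bp, the same base in both strains, began a stretch that ended at 64493 bp, again at the same base. B6 covered it without a gap, and KI had gaps of 2000 and 500 bp in it. Exons of Dnmt3a were covered to 96.1% in both strains, whereas introns were covered to 71.8% in B6 and 62.6% in KI. These shares were not separated from position along the gene, and none were computed over other genes.

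The last region of Dnmt3a began at the same base in both strains, 86994 bp from the 5′ end, and ran 1.6 kb past the 3′ end in B6 and 2.1 kb past it in KI. It was preceded by a gap of 3000 bp in B6 and 4000 bp in KI. In this gap lie the starts of the transcripts Dnmt3a-005 and Dnmt3a-201, at 85721 and 85737 bp. Both encode a protein of 689 residues, shorter than the 908 residues from Dnmt3a-001, and a short form of DNMT3A from an internal promoter is known from germ cells and embryonic stem cells. The region thus began 1273 and 1257 bp downstream of these starts, which lies between the 817 bp of Dnmt1 and the 1315 bp of Dnmt3b in B6. The other starts of protein-coding transcripts further inside the gene, at 55.0, 60.2, 79.4, 88.8, 88.9, 89.6 and 100.8 kb, all lay within broad regions of both strains. Over all genes marked in both strains, 29.7% of 4890 starts of protein-coding transcripts more than 1000 bp inside the gene lay outside broad regions in both. Among the members this held for 7 of 15, namely 5 in Dnmt3a and 2 in Uhrf1, which share genes and are not independent. Of the 7, 5 lay between 1023 and 1153 bp, just past the limit of 1000 bp and still before the gene's first region, so that the count rests on starts next to that limit. The other 2 were Dnmt3a-005 and Dnmt3a-201.

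The bases upstream of these starts are shown because they are the places that the broad regions leave free, with each CG dinucleotide (CpG, the same on both strands) in capitals. Each run of 250 bp was read from the mm9 genome in the direction of the gene and ends at the base before the annotated start. Those of Dnmt1 (chr9:20757318-20757567, reverse strand), of the full-length transcript Dnmt3a-001 (chr12:3806780-3807029, forward strand), which starts 1023 bp into the annotated gene, and of Dnmt3a-005 (chr12:3891478-3891727, forward strand) were:
Dnmt1-201: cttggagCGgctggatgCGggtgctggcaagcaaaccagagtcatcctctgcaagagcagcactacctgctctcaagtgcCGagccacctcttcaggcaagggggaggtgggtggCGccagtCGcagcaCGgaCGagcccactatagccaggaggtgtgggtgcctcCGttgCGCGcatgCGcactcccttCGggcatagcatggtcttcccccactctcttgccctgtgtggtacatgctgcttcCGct
Dnmt3a-001: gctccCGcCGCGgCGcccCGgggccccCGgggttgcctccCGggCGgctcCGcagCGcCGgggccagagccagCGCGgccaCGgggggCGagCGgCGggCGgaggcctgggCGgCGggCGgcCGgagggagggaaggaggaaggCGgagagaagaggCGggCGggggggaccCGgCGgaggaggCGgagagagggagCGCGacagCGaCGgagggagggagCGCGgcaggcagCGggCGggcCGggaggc
Dnmt3a-005: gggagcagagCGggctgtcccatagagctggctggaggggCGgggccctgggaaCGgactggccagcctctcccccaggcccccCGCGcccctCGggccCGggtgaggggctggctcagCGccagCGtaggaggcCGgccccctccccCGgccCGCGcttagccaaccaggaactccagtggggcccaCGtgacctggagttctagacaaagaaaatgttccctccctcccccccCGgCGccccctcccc
They held 13, 37 and 16 CpGs. At least as many were found in the same 250 bp of 38.3%, 2.54% and 30.6% of 22362 protein-coding genes, whose median was 8. None of the 3 was touched by a broad region in either strain. The 250 bp before the 7 starts of Dnmt3a protein-coding transcripts under broad regions of both strains held 0 to 6 CpGs. Those before the annotated 5′ end of the gene, which no broad region touched, held 2. Other members also had free starts with few CpGs. The 250 bp before Dnmt3l-001, Dnmt3l-003, Dnmt3l-002 and Dnmt3l-004, free in both strains, held 5, 4, 6 and 3. Those before Tet1-201, also free in both, held 2.

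Refined peaks were frequent in Dnmt3a, with 13 in B6 (12.0 per 100 kb) and 12 in KI (11.1 per 100 kb). One pair overlapped, by 97 bp, at 57.0 kb in B6 and 56.4 kb in KI. The B6 peak was 464 bp wide and intronic, and the KI peak was 856 bp wide and reached an exon outside the coding sequence. Of the other B6 peaks, 4 had no region of KI, among them the 3 in the separate broad regions of the first part. Of the KI peaks, 1 had no region of B6, at 12.6 kb. The 97 bp overlap (chr12:3862758-3862854, forward strand) is shown as the only stretch of Dnmt3a that both refined lists held, and it contains no CpG:
Dnmt3a overlap: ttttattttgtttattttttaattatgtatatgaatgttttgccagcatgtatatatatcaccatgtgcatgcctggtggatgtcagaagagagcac

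**Figure D2:**
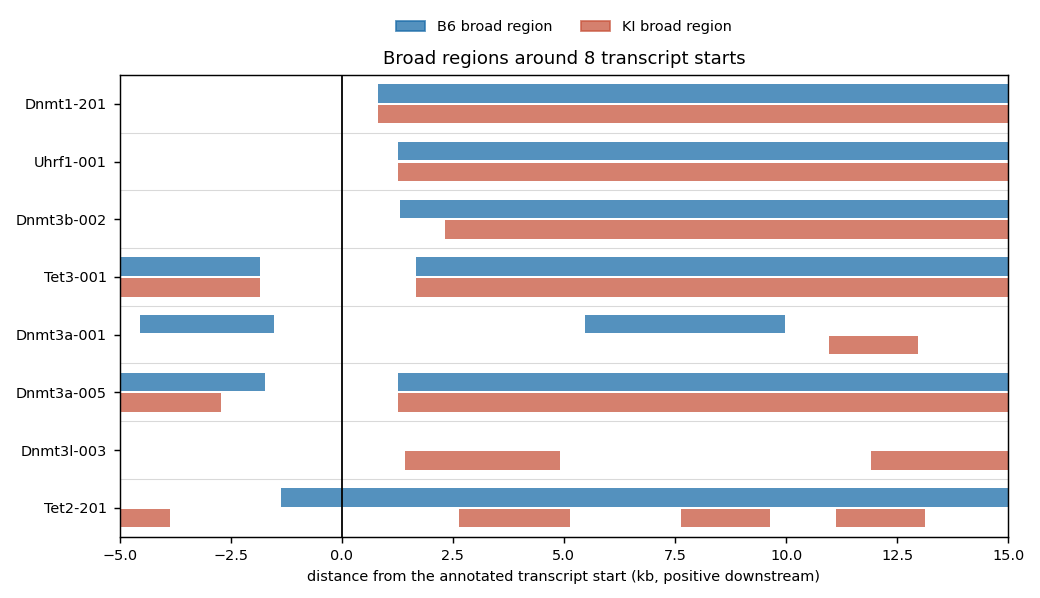
Broad regions of B6 (blue) and KI (red) from 5 kb upstream to 15 kb downstream of 8 annotated transcript starts, with distance in kb on the x axis and the start at the black line. At Dnmt1-201, Uhrf1-001, Dnmt3b-002, Tet3-001 and Dnmt3a-005 a region begins between 817 and 2315 bp downstream in both strains. Tet3-001 and Dnmt3a-005 also have regions upstream in both strains. These end 1832 bp before Tet3-001, and 1728 bp (B6) and 2728 bp (KI) before Dnmt3a-005. At Tet2-201 a B6 region spans the start.

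Dnmt3l, on chromosome 10 from 77504692 to 77526367 on the forward strand, was the member with the largest difference in cover. It had no broad region and no refined peak in B6. In KI it had 2 broad regions of 3.5 kb each, from 9309 to 12808 bp and from 19809 bp to 1.6 kb past the 3′ end. A difference of at least this size, 24.8 percentage points, was found in 3.76% of genes of like length. The first KI region began 1414 and 1297 bp downstream of the starts of Dnmt3l-003 and Dnmt3l-002, at 7895 and 8012 bp, and 8969 bp downstream of the start of Dnmt3l-001. All 3 transcripts encode 421 residues. Each region held 1 refined peak, of 277 bp in an intron at 11.2 kb and of 275 bp at the last exon at 21.5 kb, and neither met a region of B6. Aire, which overlaps Dnmt3l on the opposite strand, was at 0% in both strains. The intronic KI peak (chr10:77515705-77515981, forward strand) is shown because it marks a place that was called in 1 strain alone, and it holds 1 CpG:
Dnmt3l KI peak: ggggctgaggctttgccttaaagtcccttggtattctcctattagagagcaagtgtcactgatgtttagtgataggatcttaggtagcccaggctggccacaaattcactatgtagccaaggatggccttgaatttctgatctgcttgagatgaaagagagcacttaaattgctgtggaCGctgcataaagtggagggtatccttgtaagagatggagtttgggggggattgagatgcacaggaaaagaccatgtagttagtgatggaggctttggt

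The 3 TET genes differed widely from each other. Tet3, on chromosome 6 from 83312367 to 83391672 on the reverse strand, lay under broad regions for 97.9% of its span (B6) and 97.3% (KI). B6 had 1 region of 87.0 kb, and KI had the same stretch with a gap of 500 bp, in regions of 17.0 and 69.5 kb. It began at the same base in both strains, 1672 bp downstream of the 5′ end, and ended at the same base, 9.4 kb past the 3′ end. There it reached Bola3, a gene on the opposite strand 2.2 kb away that was covered to 64.9% in both strains, so that the enrichment of the 2 genes cannot be told apart between them. Outside the gene, a region of both strains ended 1829 bp upstream of the 5′ end of Tet3. The internal start of Tet3-201, at 61.8 kb, lay inside a region of both strains. B6 had 3 refined peaks in Tet3 and KI had 4, all intronic, and none overlapped between the strains. Over all protein-coding genes, 19.0% of B6 and 15.9% of KI refined peaks overlapped one of the other strain. The nearest pair in Tet3, at 61.0 and 61.9 kb, flanked the start of Tet3-201, the B6 peak upstream of it and the KI peak 161 bp downstream.

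Tet2, on chromosome 3 from 133126643 to 133207354 on the reverse strand, was marked in its 3′ part. Its cover was 40.7% in B6 and 21.7% in KI, a difference of 19.0 points that was reached or exceeded in 7.16% of genes of like length. No broad region lay in the first 29.9 kb in B6 or the first 30.9 kb in KI. B6 then had regions of 3.5 and 3.0 kb and then 1 of 26.5 kb that ran from 54.4 kb to 0.1 kb past the 3′ end. KI had 6 regions of 2.0 to 4.5 kb, the last ending 2.4 kb before the 3′ end. The difference was larger over exons than over introns. Of the exons, 97.9% of the bases lay under broad regions in B6 and 37.2% in KI, and introns were covered to 33.3% and 19.7%. Here too exons and introns were not separated from position along the gene. The long B6 region began 1365 bp upstream of the start of Tet2-201, at 55.7 kb. This transcript encodes 1919 residues and Tet2-202, which starts at the 5′ end, encodes 1912, so that a complete coding sequence follows the internal start. In KI the next region began 2635 bp downstream of that start. The 250 bp before the 5′ end of the gene (chr3:133207355-133207604, reverse strand) held 51 CpGs, a number reached in 0.0760% of genes. The nearest broad region downstream was 29854 bp away in B6 and 30854 bp away in KI. These 250 bp are printed with those of Tet1.

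B6 covered more of Tet2 than KI did and had fewer refined peaks there, 4 against 8. Of the 4, 2 overlapped a KI peak. One pair lay in an intron at 48.8 kb in B6 and 49.0 kb in KI and overlapped by 65 bp. The other lay at a coding exon at 75.1 and 75.3 kb and overlapped by 235 bp, the widest overlap in the 8 genes. The widest member peak of either strain was a KI peak of 945 bp at a coding exon of Tet2, at 64.2 kb, within the long broad region of B6 but without a B6 refined peak. The stretches held by both strains (chr3:133132071-133132305 and chr3:133158372-133158436, both in the reverse direction of the gene) are shown as the parts of Tet2 that both refined lists held, with 2 CpGs in the former and none in the latter:
Tet2 overlap at the coding exon: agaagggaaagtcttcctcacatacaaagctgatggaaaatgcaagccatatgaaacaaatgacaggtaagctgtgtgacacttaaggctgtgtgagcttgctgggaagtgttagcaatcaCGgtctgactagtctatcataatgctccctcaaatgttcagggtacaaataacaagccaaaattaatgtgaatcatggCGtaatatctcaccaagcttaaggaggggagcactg
Tet2 overlap in the intron: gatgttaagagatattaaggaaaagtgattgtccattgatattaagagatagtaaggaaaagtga

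Tet1, on chromosome 10 from 62267318 to 62361866 on the reverse strand, was almost free of the mark. B6 had 1 broad region of 4.0 kb from 81.9 to 85.9 kb, and KI had none, the next KI region lying 107366 bp downstream of the 5′ end, outside the gene. The B6 region held 2 refined peaks, of 593 bp at a coding exon at 83.0 kb and of 258 bp in an intron at 84.9 kb, and contained the starts of 3 transcripts, between 84577 and 84579 bp, of which the longest coding one, Tet1-004, encodes 398 residues beside 2039 for Tet1-001. The 2 earlier starts of full-length coding transcripts, at the 5′ end and at 19.1 kb, lay outside broad regions in both strains. Cover in 1 strain and none in the other was found in 2 of 8 members, Tet1 and Dnmt3l in opposite directions, against 11.0% of genes of like length. The upstream bases of the 5′ end of Tet1 (chr10:62361867-62362116, reverse strand), with 4 CpGs, and the intronic B6 peak (chr10:62276869-62277126, reverse strand), with none, are shown with the CpG-rich start of Tet2:
Tet1-001: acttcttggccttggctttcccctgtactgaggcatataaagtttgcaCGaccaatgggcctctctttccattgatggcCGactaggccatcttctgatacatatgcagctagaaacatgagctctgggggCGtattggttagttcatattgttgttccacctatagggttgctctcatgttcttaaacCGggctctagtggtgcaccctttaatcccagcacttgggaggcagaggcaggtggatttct
Tet2-202: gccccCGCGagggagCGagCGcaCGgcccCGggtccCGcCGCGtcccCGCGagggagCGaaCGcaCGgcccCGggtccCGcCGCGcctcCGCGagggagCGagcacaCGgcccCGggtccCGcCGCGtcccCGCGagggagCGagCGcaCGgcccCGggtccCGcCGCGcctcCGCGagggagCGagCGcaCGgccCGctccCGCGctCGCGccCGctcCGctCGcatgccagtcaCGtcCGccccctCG
Tet1 B6 peak: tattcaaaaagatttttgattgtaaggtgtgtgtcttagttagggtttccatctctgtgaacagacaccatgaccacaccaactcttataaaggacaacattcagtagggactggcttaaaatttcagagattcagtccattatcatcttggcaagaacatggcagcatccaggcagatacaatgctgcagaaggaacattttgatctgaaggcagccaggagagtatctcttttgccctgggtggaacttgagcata

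**Figure D3:**
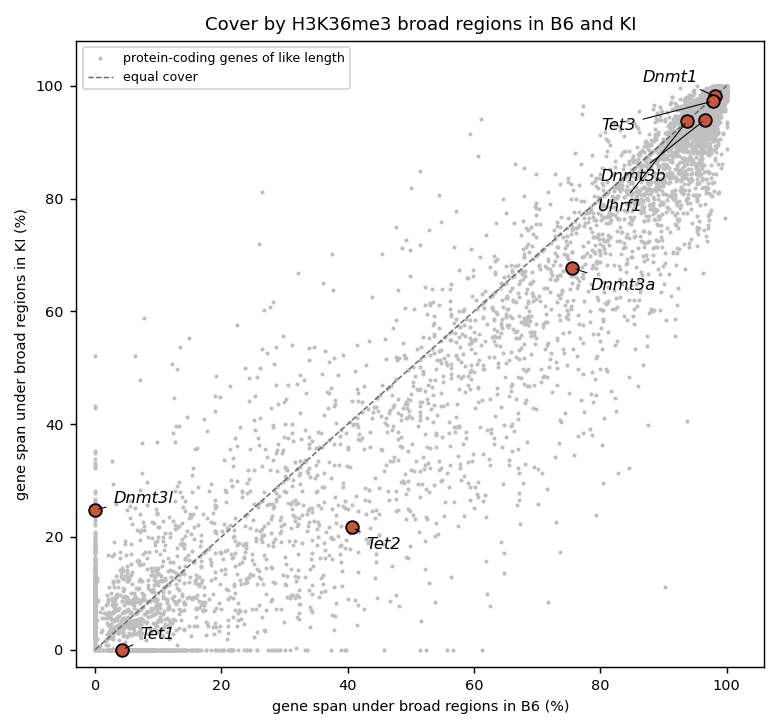
Share of the gene span under broad regions in B6 (x axis, %) and KI (y axis, %), with the 8 members as labeled red points, the 7532 protein-coding genes of like length as gray points and the dashed line for equal cover. Dnmt1 and Uhrf1 lie on the line at 98.2% and 93.8%, Tet2 lies below it at 40.7% and 21.7%, and Dnmt3l above it at 0% and 24.8%.

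Where cover differed, B6 had the higher value in 5 members (Dnmt3a, Dnmt3b, Tet1, Tet2 and Tet3), KI in 1 (Dnmt3l), and in Dnmt1 and Uhrf1 the values were equal. Genes of like length leaned the same way, with less cover in KI for 45.8%, more in KI for 21.9% and equal cover for 32.3%. All 5 Sertoli cell markers and 1 of 4 blood cell markers were likewise covered less in KI than in B6. The blood cell marker Ptprc went the other way, with 2.22% in B6 and 2.67% in KI. Among Leydig cell markers, Lhcgr had 4.96% in B6 and 0% in KI, and Cyp11a1 had 0% and 1.51%. The spermatocyte markers Dmc1 (99.9% and 98.8%) and Tex14 (89.4% and 85.8%) were also covered less in KI. The other spermatocyte markers matched by name had equal cover. The part of other cell types in the cover of Tet1, Tet2 or Dnmt3a in B6 was not tested.

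The 5′ ends of all 8 genes lay outside broad regions in both strains. For Dnmt3l in B6 and Tet1 in KI this follows from the lack of any region in the gene. No share over all protein-coding genes was computed for this count. In the 5 marked genes a broad region covered the 3′ end. In Dnmt3a (both strains) and Tet3 (KI) it was a later region than the first of the gene. Among the 8919 protein-coding genes marked in both strains, the 5′ end was outside in 88.6% in B6 and 89.0% in KI, and the 3′ end inside in 94.6% and 93.2%. The members, 5 of 5 for each end and strain, thus showed the usual pattern of marked genes. In such genes with a free 5′ end, the median distance to the first region was 1023 bp (B6) and 1116 bp (KI), and the middle 50% of genes lay between 611 and 1801 bp (B6) or between 635 and 2049 bp (KI). Dnmt1, Uhrf1 and Tet3 fell within these ranges in both strains and Dnmt3b in B6 alone, while Dnmt3a lay far above them with 6494 and 11994 bp. The first edge was at the same base in both strains for 3 of the 5 marked members, against 47.2% of genes marked in both strains.

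The 8 genes held 27 refined peaks of B6 and 32 of KI, and each list had a peak in 7 of 8 members. With peaks of at least 300 bp only, the counts were 15 and 12, so that the strain with more peaks turned. Of genes of like length, 75.2% had a refined peak in B6 and 78.3% in KI. Introns held 20 of the B6 peaks and 22 of the KI peaks, coding exons 4 and 5, and other exons 3 and 5. Introns make up most of the span of every member. These counts were not set against that share of length, and no share over all genes was computed. The median width was 306 bp in B6 (range 136 to 685 bp) and 266 bp in KI (range 109 to 945 bp), beside 313 and 319 bp for all refined peaks. The 5 members marked in both strains had a density of 7.20 refined peaks per 100 kb (B6) and 7.54 (KI), of which Dnmt3a gave the largest part, beside 6.70 and 9.82 in all genes marked in both strains. A refined peak of the other strain was overlapped by 4 peaks of each list, 1 pair each in Dnmt3a and Dnmt3b and 2 in Tet2. A further 16 B6 peaks and 24 KI peaks lay in a broad region of the other strain, and 7 and 4 met no region of the other strain. Of the 44681 B6 refined peaks in all protein-coding genes, 19.0% overlapped a KI refined peak, 43.6% lay in a KI broad region and 37.4% met neither. Of the 53519 KI peaks, these shares were 15.9%, 64.9% and 19.2%. Median GC content of the member peaks was 46.6% in B6 and 48.1% in KI, beside 41.9% and 42.9% for all refined peaks. The median number of CpGs per 100 bp was 0.65 and 0.79, beside 0.70 and 0.72. All refined peaks include those outside genes, and width, GC content and CpGs were not computed for peaks in all protein-coding genes. Dnmt3a held 13 of the 27 member peaks of B6 and 12 of the 32 of KI. The middle of 2 B6 peaks and 3 KI peaks lay within 500 bp of an annotated transcript start of the gene, a count for which no share over all genes was computed.

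Of 32 other genes of the pathway, 26 were marked over at least 50% of their span in B6 and 23 in KI, and 23 in both, with medians of 92.3% and 87.7%. Beside this stand the 43.0% (B6) and 41.2% (KI) of all protein-coding genes that were marked. The listed genes were 2114 to 372775 bp long, and no share for genes of matched length was computed. Among readers of methylated DNA, all 8 were marked in B6 and 6 in KI. Zbtb4 and Zbtb38, zinc finger proteins that bind methylated CpGs, were covered to 52.5% each in B6 and to 41.4% and 41.1% in KI. Of 8 partners of the methyltransferases, 7 were marked in both strains, including Hells, a chromatin remodeler required for DNA methylation, with 99.8% and 98.5%, and Uhrf2, the paralog of Uhrf1, with 98.4% and 97.6%. Zfp57, which protects imprinted methylation, was at 0 in both. All 3 genes of the methyl donor cycle were marked in both strains. Ahcy, which removes S-adenosylhomocysteine, had 95.2% in B6 and 75.4% in KI. Of 13 genes for demethylation and base excision repair, 8 were marked in B6 and 7 in KI. Tdg, the glycosylase that excises the oxidized bases made by TET enzymes, was covered to 98.0% in both strains. Smug1, another glycosylase, lay on different sides of the limit, with 78.5% in B6 and 48.7% in KI. Dppa3, Cxxc4 and Gadd45b were at 0 in both strains. Cxxc4 is the nearest protein-coding gene upstream of Tet2, 692.4 kb away.

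**Figure D4:**
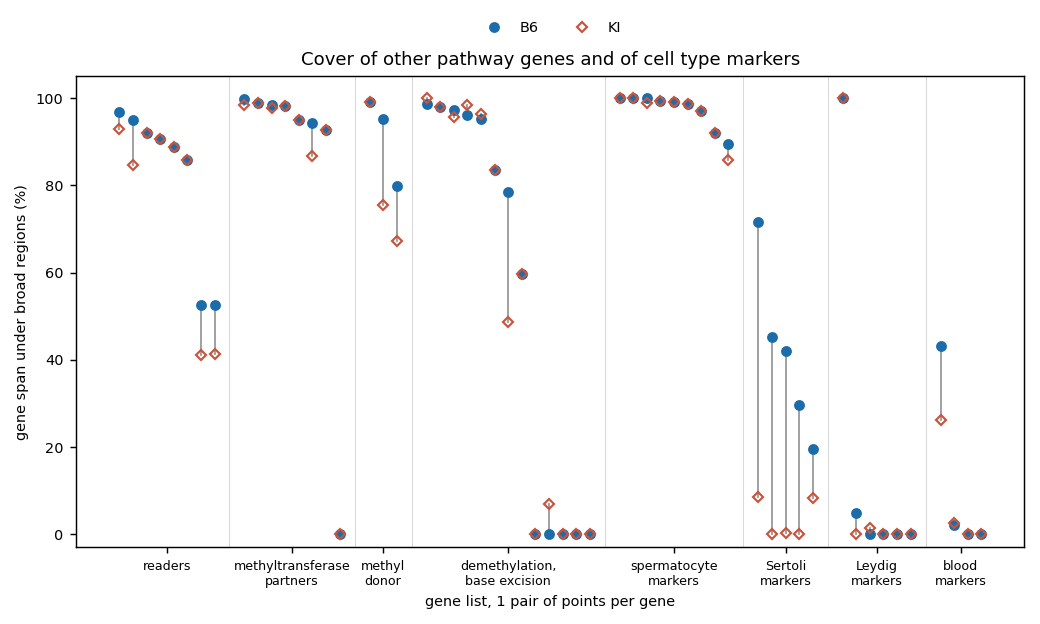
Share of the gene span under broad regions (y axis, %) in B6 (filled blue circles) and KI (open red diamonds) for 32 other genes of the pathway and for cell type markers, 1 pair of points per gene joined by a gray line and sorted by the B6 value within each list. Spermatocyte markers lie at 85.8% or more in both strains, and the 5 Sertoli cell markers lie lower in KI than in B6.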

How the data were processed

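The authors carried out H3K36me3 ChIP-seq on male germ cells. Reads aligned to unique positions of mm9 with BWA v1.2.3 were merged over 2 replicates per strain, and ZINBA called broad and refined regions against the input. The deposited files hold only the start and end of each region, in bp, with no other values. Broad regions were merged where they overlapped or touched, and their share of each gene span, their edges and the refined peaks overlapping a gene by at least 1 bp were computed with Python 3.11.15 and numpy 2.4.6. Cover was checked against bedtools 2.31.1 over 22367 genes with 0 differences, and the code was tested on simulated data. Genes came from GENCODE vM1, whose build (NCBIM37) is mm9, and sequences from that genome through samtools 1.23.1.

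The members and the lists of other genes were chosen with earlier results of these data known. The rule for named genes took all 8 members, neighbors reached by a member's broad region, the most similar gene by cover along the gene, and listed pathway genes that were marked in 1 strain only or at 0 in both, of which 1 is not reported here. Eif3g, Aire, Hells, Uhrf2, Ahcy and Tdg, the length range, and the limits of 90% and of 1000 bp for internal starts were chosen after values were seen. Marker lists covered spermatocytes, Sertoli cells, Leydig cells and blood cells. The labels' antibody field is spelled H3K36me6, and the titles' H3K36me3 was followed. Alternatives changed the limit of 50% to 80% or 20%, the gene span, the joining of regions up to 1000 bp apart, the minimum widths (3000 bp for broad, 300 bp for refined) and the overlap that counts as shared. Reads, hotspot positions and RNA-seq data were not used here.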

Additional observations from a re-analysis of the deposited data

How the results depend on the processing

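Of 38 alternatives, 33 left the value within 1.5 times the main count or, for shares of length, within a Wilson 95% interval that takes each step of 500 bp as 1 trial (neighboring steps are not independent, so it is a yardstick only), and 5 moved further. The number of marked members stayed between 4 and 7, the latter at a limit of 20% in KI. With refined peaks of at least 300 bp only, the members held 15 in B6 and 12 in KI, so that the strain with more peaks was then B6. With peaks up to 500 bp apart counted as shared, 7 B6 peaks had a KI counterpart. When overlap with a broad region of the other strain sufficed, 20 B6 and 28 KI peaks did, which follows from the alternative itself. Causes of the other changes were not tested. The lists hold no score, so a stricter calling threshold was stood in for by width. No paired analysis was possible because each strain has 1 list of merged replicates, and for the same reason none leaves out a replicate. Reads without a unique position were discarded by the authors, and what this does to cover in repeats was not tested.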

Other observations

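The genes whose cover along the gene was most like that of a member, by the mean absolute difference over 20 equal bins in both strains, were found among protein-coding genes of similar length. For Dnmt3a, with its broken pattern, the closest of 1188 candidates was Atp2c1, a calcium pump of the Golgi, which differed by 11.1 percentage points per bin, against a median of 42.4 over all candidates. For Tet2 it was Sept11, a septin, at 15.9 points against a median of 45.3, and for Dnmt3l it was Apol7e at 6.04 points against 58.0. Apol7e was not covered in B6, and 19.6% of it was covered in KI. For the members covered along nearly their whole span, the closest genes were Rab40c for Dnmt1, Rnaset2a for Uhrf1, Fbxo18 for Dnmt3b and Rc3h1 for Tet3, each within 0.325 points.

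Several neighbors of the weakly marked members had another cover than the member. Slc25a16, upstream of Tet1, had 88.9% of its span covered in B6 (KI 82.1%), and Ccar1, 12.2 kb downstream of Tet1, had 98.7% covered in both. Ppa2, downstream of Tet2, was covered to 68.5% and 74.4%, more in KI than in B6, the opposite direction to Tet2. Icosl, 5.7 kb downstream of Dnmt3l, had a cover of 18.0% in B6 and of 0% in KI, again opposite to Dnmt3l. Pfkl, 31.9 kb upstream of Dnmt3l, had 20.8% in B6 and 21.6% in KI, the same direction as Dnmt3l. Slc25a16 likewise had the direction of Tet1, with less cover in KI. These neighbors were named after their values were seen.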
